A study of Rattus norvegicus with 6 samples.

Results

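The Notch receptors, ligands and Hes/Hey target genes were followed in cultured rat spinal cord astrocytes by the probe sets whose gene symbol in the platform annotation is Notch1, Notch2, Notch3, Jag1, Dll1, Hes1, Hes5, Hey1, Hey2 or Lfng. They are 10 of the 14217 genes with a symbol of their own on the array, and were read by 12 of the 31042 probe sets that are not controls, 2 each for Notch1 and Hes5 and 1 for each of the others. The study compared 3 arrays of astrocytes from transgenic hSOD1G93A rats with 3 arrays of nontransgenic astrocytes, NonTG, and the 3 replicates of a group are lettered A to C. The hSOD1G93A rats carry human superoxide dismutase 1 in a mutant form linked to familial amyotrophic lateral sclerosis. The promoter of the transgene and the age of the animals are not given in the sources used here. Both groups were grown to confluence and given supplemented L15 medium for 24 hours before RNA was taken, and 5 ug of total RNA was labelled per Rat Genome 230 2.0 array.

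In the Notch pathway a membrane-bound ligand on one cell (Delta-like or Jagged) binds a Notch receptor on its neighbour. The receptor is then cut by an ADAM protease and by gamma-secretase, and its intracellular part enters the nucleus. There it joins the DNA-binding protein Rbpj and the Mastermind coactivators and switches on genes such as Hes1, Hes5, Hey1 and Hey2, which encode repressors of the basic helix-loop-helix class. In the developing spinal cord the pathway holds back neuronal differentiation and favours glial fates, and it remains active in astrocytes.

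No Notch gene on the array was called different between hSOD1G93A and NonTG. The values are MAS5 signals on a linear scale, scaled by the authors to a common level per array. Differences are given as the mean log2 signal of hSOD1G93A minus that of NonTG, from limma fitted over all probe sets above a filter for dim signals (a mean log2 signal above the 40th percentile, a signal of 66.7). Of the 12 probe sets, 10 passed this filter, for 9 genes. Those of Dll1 and the second one of Hes5 were too dim and were not tested. With limma and Benjamini-Hochberg adjustment over the 18625 probe sets tested, 0 of the 10 had an adjusted p under 0.05, against 0% of all probe sets. At an unadjusted p under 0.05 the count was again 0 of 10, against 2.54% of all probe sets. Differences were above 0 for 5 of the 10 and below 0 for the other 5. By gene, each read by its brightest tested probe set, the median difference was -0.055 over the 9 tested members and 0.0030 over all 10473 genes tested.

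The target gene Hes5 was the member whose groups did not overlap, lower on all 3 hSOD1G93A arrays. The same separation in the lower direction was seen for 3.51% of all probe sets tested and in the higher direction for 4%, which is set here against 1 of 10 member probe sets lower and 0 of 10 higher. A change of 1.5-fold or more, up or down, lay outside the 95% interval for 5 of the 10 (both probe sets of Notch1 and those of Hes1, Hey1 and Hey2), and one of 2-fold or more for 9, all but Hes5. Whether the samples within a group are separate cultures or animals is not given by the labels, so p-values reflect only how these samples vary, which may be technical variation.

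**Figure D1:**
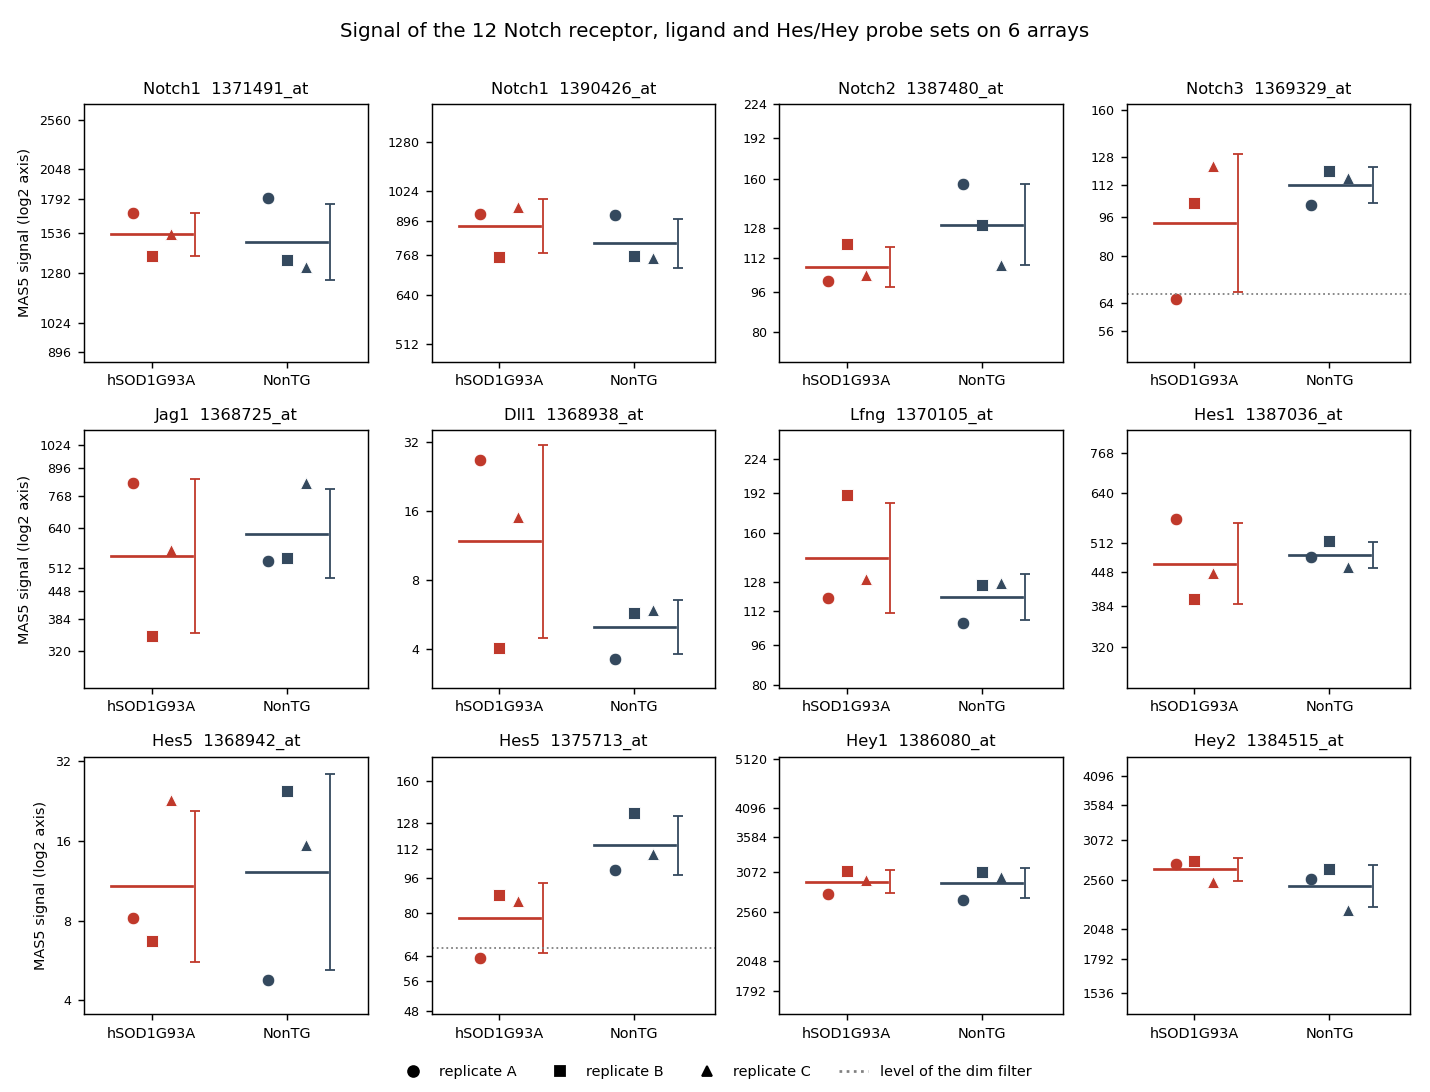
MAS5 signal of each of the 12 probe sets (log2 axis, own scale per panel) on the 3 hSOD1G93A arrays, left, and the 3 NonTG arrays, right, with the symbol showing the replicate letter, the horizontal line the mean of the log2 signals and the bar 1 SD (n = 3). The hSOD1G93A points lie wholly below the NonTG points in the panel of Hes5 1375713_at. The dotted line marks the filter level of 66.7 where it falls within a panel, and all points of Dll1 and of Hes5 1368942_at lie below it.

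The cultures carried the markers of astrocytes. All 9 of the listed astrocyte markers on the array passed the filter, with Fabp7, Gja1 and Aqp4 as the brightest, and 0 of the 6 microglia markers did. Of the pericyte and smooth muscle markers 9 of 12 passed, and of the endothelial markers 4 of 9, with Pecam1, Tek, Tie1, Cldn5 and Vwf under the filter. Of the other lists, 3 of 3 ependymal, 7 of 8 neuron, 5 of 5 neural progenitor and 5 of 7 oligodendrocyte lineage markers passed. Of all 14217 genes on the array 10473 passed, so passing the filter does not by itself show that a cell type was present. No marker in any list was called by limma. The endogenous rat Sod1 had signals of 9781, 10860.3 and 10510.2 on the hSOD1G93A arrays A, B and C, against 8982, 8855 and 9429.7 on the NonTG arrays. Whether its probe set also reads the human transcript was not tested.

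Among the receptors, Notch1, which acts in neural progenitors and glia, was read by a pair of probe sets. The brighter one (1371491_at) had signals of 1682, 1385 and 1530 on hSOD1G93A arrays A, B and C, and of 1797, 1356 and 1314 on NonTG arrays A, B and C. The array of replicate A was the highest of its group in both genotypes, and the groups overlapped. The difference was 0.052 (SE 0.13, 95% interval -0.25 to 0.35), with an adjusted p of 0.9997 in limma. The other probe set (1390426_at) had signals of 924, 758 and 951 in hSOD1G93A and of 919, 762 and 755 in NonTG. Here hSOD1G93A C stood beside both A arrays and the other three arrays lay lower. The difference was 0.11 (SE 0.13, interval -0.18 to 0.40). The upper ends of the 2 intervals correspond to 1.28-fold and 1.32-fold higher levels in hSOD1G93A.

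Notch2, a receptor of the same structure, had signals of 101, 119 and 103 in hSOD1G93A and of 156, 129.97 and 108 in NonTG. Only the highest hSOD1G93A value, that of array B, lay above the lowest NonTG value, that of array C. The difference of -0.28 (SE 0.23, interval -0.80 to 0.25; 0.826-fold) did not pass, with an adjusted p of 0.9997 in limma. It was below 0 within each letter (A -0.63, B -0.13 and C -0.065). Its size rested in part on NonTG A, the highest array, without which it was -0.14.

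Notch3, the receptor best known from pericytes and vascular smooth muscle, was near the filter. Its signals were 65.1, 103 and 122 in hSOD1G93A and 102, 119.7 and 115 in NonTG. The low value of hSOD1G93A A, under the filter level, set this gene's difference of -0.26 (SE 0.29, interval -0.91 to 0.39), which was 0.0014 without that array. On the same array the list value of the pericyte and smooth muscle markers was 0.34, against 0.40 on NonTG C, its highest array. This value is the median over the tested markers of the log2 signal minus each gene's mean over the 6 arrays. The markers did not move as one, since Tagln, the brightest of them, had its second lowest signal on hSOD1G93A A. The part of such cells in the Notch3 values was not tested.

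The ligand Jag1, which binds Notch receptors and is made by astrocytes and by smooth muscle cells, varied more between arrays than most genes. Its signals were 827, 348 and 565 on hSOD1G93A arrays A, B and C, and 532, 542 and 828 on NonTG arrays A, B and C. The highest hSOD1G93A and the highest NonTG array were nearly equal, and hSOD1G93A B was the lowest of all 6. The within-group SD of 0.51 on the log2 scale exceeded that of 93.8% of the probe sets tested, whose median was 0.19. The difference was -0.18 (SE 0.29, interval -0.84 to 0.48), with an adjusted p of 0.9997 in limma, and its sign was that of single arrays: it was 0.14 without hSOD1G93A B and 0.025 without NonTG C. Letter A gave 0.64, while B gave -0.64 and C -0.55.

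Markers of pericytes and smooth muscle varied beside Jag1. Their list value was 0.34, -0.56 and 0.0073 on hSOD1G93A arrays A, B and C, and 0.18, -0.25 and 0.40 on the NonTG arrays. Jag1 and this list thus shared the lowest array, hSOD1G93A B, and had hSOD1G93A A and NonTG C as their highest arrays. Acta2, the actin of smooth muscle, had signals of 4700, 2072 and 3913 in hSOD1G93A and of 4229, 3549 and 5576 in NonTG. Myl9, a myosin light chain, had 6884, 2090 and 3835 in hSOD1G93A and 5157, 3561 and 5596 in NonTG. Tagln, an actin-binding protein and the brightest of the list, varied less, with 13172, 11144 and 13957 in hSOD1G93A and 13995, 13638 and 14284 in NonTG. It was lowest on hSOD1G93A B too, but hSOD1G93A A was its second lowest array. The list of endothelial markers was also lowest on hSOD1G93A B (-0.45) and highest on hSOD1G93A A (0.47), but it was 0.0051 on NonTG C. The part of any of these cells in the values of Jag1 was not tested. In bulk cultures fewer cells of a type and less RNA per cell cannot be told apart.

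**Figure D2:**
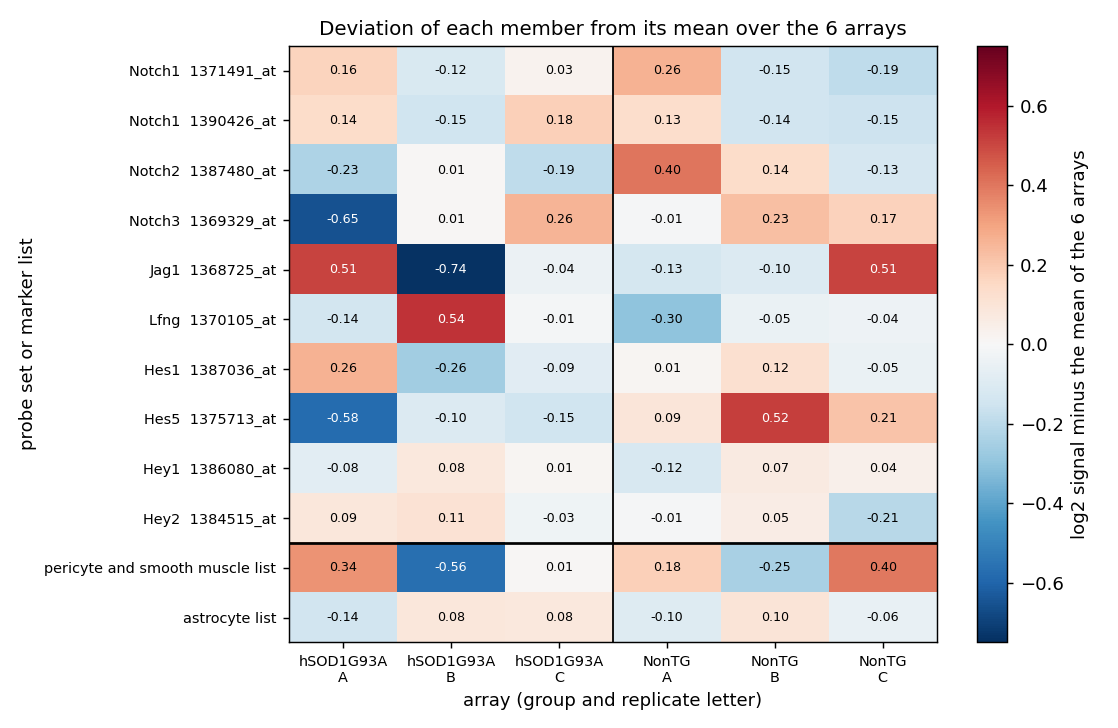
Log2 signal minus the mean of the 6 arrays for the 10 tested probe sets (rows) on each array (columns, hSOD1G93A left of NonTG), with the list values of pericyte and smooth muscle markers and of astrocyte markers under the line. Jag1 and the pericyte and smooth muscle list have their lowest value on the same array, hSOD1G93A B (-0.74 and -0.56), while Hey1 and Hey2 stay between -0.21 and 0.11 on all 6.

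Dll1, the Delta-like ligand of neural progenitors, was under the filter on all 6 arrays. Its signals were 26.9, 4.05 and 15.1 in hSOD1G93A and 3.63, 5.75 and 5.89 in NonTG. The higher values on hSOD1G93A A and C lie well under the level of 66.7, and the arrays overlap because of hSOD1G93A B. When all probe sets were fitted with no filter, the difference was 1.25 with an SE of 0.93 (interval -0.83 to 3.33; adjusted p of 0.9998 in limma), so no size can be given for this gene.

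Lfng, lunatic fringe, adds sugars to the Notch receptors and so changes which ligands they answer to. Its signals were 119, 190.0 and 129.6 in hSOD1G93A and 106, 126 and 127 in NonTG. The value of hSOD1G93A B stood above the other five, which lay between 106 and 129.6. The difference was 0.26 (SE 0.24, interval -0.29 to 0.81; adjusted p of 0.9997 in limma), and 0.054 without hSOD1G93A B. Lfng was highest on the array on which Jag1 was lowest. The list of ependymal markers was also highest there, at 0.45 on hSOD1G93A B, against -0.23 and 0.00044 on hSOD1G93A A and C and -0.25, 0.18 and -0.11 on NonTG A, B and C. The lists of oligodendrocyte lineage and of neural progenitor markers were highest on hSOD1G93A B too, at 0.27 and 0.070. The neural progenitor value was nearly as high on NonTG B, at 0.056. Cnp, the brightest oligodendrocyte lineage marker tested, had its second lowest signal on hSOD1G93A B, while Olig1 and Mbp had their highest there. The part of any of these cells in the Lfng values was not tested.

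The target genes were read with very unequal precision. Hes1 and Hes5 encode the repressors through which Notch holds back neuronal genes, and Hey1 and Hey2 encode related repressors known mostly from heart and vessels. The promoter windows of the targets are shown because Rbpj binds DNA at sites with the core letters TGGGAA, and the windows let the values be read beside the letters. They are from RefSeq (GRCr8), 250 bases before to 50 after each gene's start, 5′ to 3′ on the gene's strand, with TGGGAA or its reverse complement TTCCCA in capitals. Hes1 lies on the minus strand (chr11:84212996-84213295), Hes5 on the plus strand (chr5:170804327-170804626) and Hey2 on the plus strand (chr1:28640850-28641149).
Hes1: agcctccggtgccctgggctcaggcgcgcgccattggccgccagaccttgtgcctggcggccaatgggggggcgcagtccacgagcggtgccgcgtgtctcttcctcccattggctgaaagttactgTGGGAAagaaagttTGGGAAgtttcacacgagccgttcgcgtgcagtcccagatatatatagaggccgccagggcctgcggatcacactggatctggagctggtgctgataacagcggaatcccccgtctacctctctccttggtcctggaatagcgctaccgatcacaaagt
Hes5: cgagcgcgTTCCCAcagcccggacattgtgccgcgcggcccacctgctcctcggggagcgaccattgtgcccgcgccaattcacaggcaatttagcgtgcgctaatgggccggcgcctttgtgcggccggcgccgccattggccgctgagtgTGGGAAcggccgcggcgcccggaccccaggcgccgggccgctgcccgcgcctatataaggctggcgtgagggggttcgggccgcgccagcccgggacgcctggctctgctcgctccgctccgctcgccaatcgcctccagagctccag
Hey2: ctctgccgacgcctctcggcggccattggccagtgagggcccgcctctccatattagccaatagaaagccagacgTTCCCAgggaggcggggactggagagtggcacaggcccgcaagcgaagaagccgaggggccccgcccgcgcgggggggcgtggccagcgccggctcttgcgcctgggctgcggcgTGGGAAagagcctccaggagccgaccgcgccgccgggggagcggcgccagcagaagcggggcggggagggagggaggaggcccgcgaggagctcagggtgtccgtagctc

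In the Hes1 window the letters stand in pairs on the gene's strand, at -123 to -118 and -109 to -104 from the start. Hes5 held TTCCCA at -242 to -237 and TGGGAA at -98 to -93, and Hey2 held TTCCCA at -175 to -170 and TGGGAA at -60 to -55. Of the 9 members with a window, 6 held the letters on either strand and 5 held them at 2 or more places (Dll1, Hes1, Hes5, Hey2 and Lfng; Notch3 held them once). Among all 33469 windows of this length the shares were 25.7% and 3.85%. Such a match is a description of the letters and not a binding site shown in these cells. Hey1 has no window in the table.

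Hes5 was the member nearest to a difference. Its brighter probe set (1375713_at) had signals of 63.2, 87.9 and 85.1 on hSOD1G93A arrays A, B and C, and of 100.5, 135 and 109 on NonTG arrays A, B and C. All 3 hSOD1G93A values lay below all 3 NonTG values, and the lowest, that of hSOD1G93A A, was under the filter level. The difference was -0.55 (SE 0.27, interval -1.15 to 0.050), or 0.683-fold, with an unadjusted p of 0.0680 and an adjusted p of 0.9997 in limma. The 3 letters gave -0.67, -0.62 and -0.36, and with the letter as a replicate block the adjusted p was 0.840. With a pseudocount of 16, which damps differences between dim signals, it was -0.47.

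The second Hes5 probe set (1368942_at) did not bear on this. Its signals were 8.19, 6.69 and 22.8 in hSOD1G93A and 4.77, 24.7 and 15.5 in NonTG, all under the filter level and overlapping. Fitted with no filter, its difference was -0.18 with an SE of 0.91 (interval -2.22 to 1.85). The probe set that gave the separated values was thus the only reading of Hes5 above the filter.

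Hes1 had signals of 569.8, 397 and 447 in hSOD1G93A and of 479.8, 516 and 458 in NonTG. The hSOD1G93A arrays enclosed the NonTG arrays, with A above and B and C below all of them. The difference was -0.055 (SE 0.15, interval -0.40 to 0.29; adjusted p of 0.9997 in limma), with 0.25 in letter A, -0.38 in B and -0.034 in C. A lower level like the 0.683-fold of Hes5 lay outside this interval, whose lower end is 0.760-fold. A test of the difference between these 2 genes was not run.

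Hey1 and Hey2 were the most evenly measured members. Hey1 had signals of 2774, 3086 and 2955 in hSOD1G93A and of 2697, 3067 and 3002 in NonTG. Within each letter the 2 genotypes were close, and A was the lowest array of both groups. The difference was 0.0088 (SE 0.085), and its interval of -0.18 to 0.20 corresponds to 0.882-fold to 1.15-fold. Hey2 had signals of 2749, 2788 and 2532 in hSOD1G93A and of 2572, 2685 and 2235 in NonTG. The hSOD1G93A array was the higher in each letter, by 0.096, 0.054 and 0.18, though the groups overlapped. The difference, which was 0.032 without NonTG C, was 0.11 (SE 0.093, interval -0.099 to 0.32; adjusted p of 0.9997 in limma), so that a level above 1.25-fold lay outside the interval. The within-group SDs of 0.089 for Hey1 and 0.11 for Hey2 exceeded those of 13.3% and 21.8% of the probe sets tested.

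The Hey genes are also known from endothelium, and endothelial markers were measured beside them. Over the 4 tested markers, of which Eng, Kdr and Esam were the brightest, their list value was 0.47, -0.45 and -0.16 in hSOD1G93A and 0.26, -0.28 and 0.0051 in NonTG. Hey1 and Hey2 stayed between -0.21 and 0.11 of their own means. The markers did not move as one: Kdr, a receptor for vascular growth factor, had 166, 270.1 and 112 in hSOD1G93A and 175, 114 and 64.1 in NonTG, highest on hSOD1G93A B, where the list value was lowest. The part of endothelial cells in the Hey1 and Hey2 values was not tested.

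**Figure D3:**
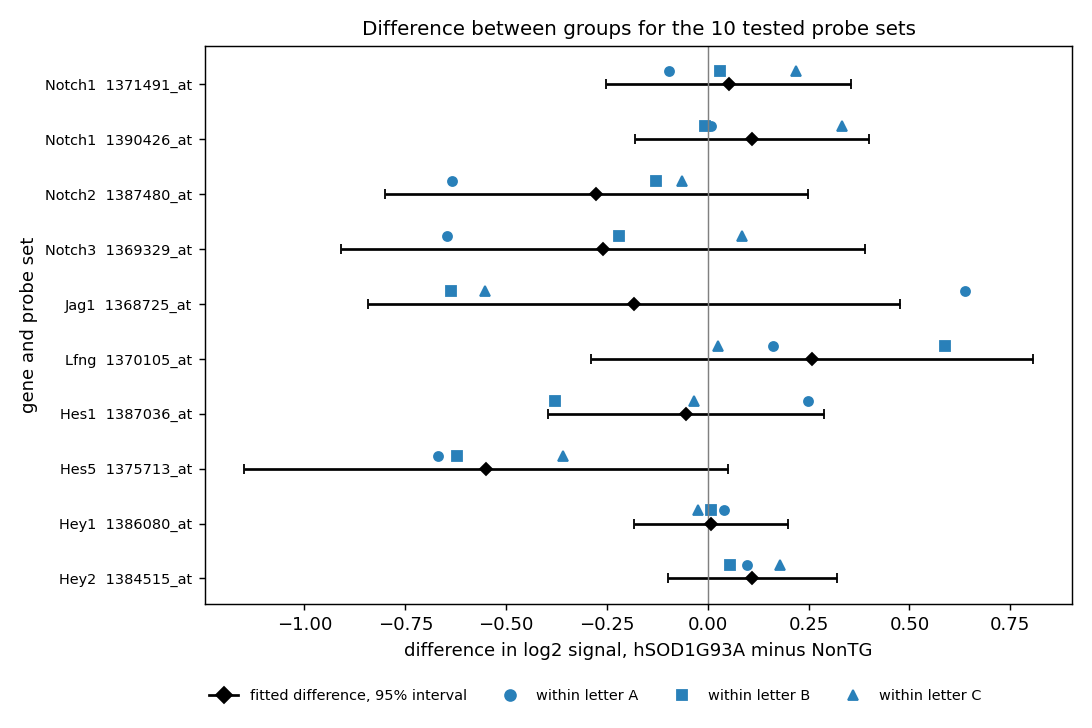
Difference in log2 signal, hSOD1G93A minus NonTG, for the 10 tested probe sets (diamonds, with 95% intervals from limma) and the difference within each replicate letter (blue symbols above). All 10 intervals include 0, the differences within the letters have 1 sign for Notch2, Lfng, Hes5 and Hey2, and for Jag1 letter A lies at 0.64 and B at -0.64.

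Within the letters, 6 of the 10 probe sets were higher in hSOD1G93A for A, 4 for B and 5 for C. The sign was the same in all 3 letters for 4 of them, lower for Notch2 and Hes5 and higher for Lfng and Hey2. No share over all probe sets is set beside this count, so it is a description only.

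The members did not vary together as a set. Over the 6 arrays, Pearson's r between the log2 signals of probe sets of different members lay between -0.94 and 0.78 over 44 pairs. The lowest was that of Notch1 (1371491_at) with Hey1 (Spearman's rho -0.77), which rests on low Hey1 and high Notch1 on both A arrays. The highest was that of Notch3 with Hes5 (rho 0.37), 2 genes with their lowest signal on hSOD1G93A A. The pair of Notch1 probe sets had r = 0.86 (rho 0.71). Hes1 with Hes5 had r = -0.18 and Hey1 with Hey2 r = -0.045. These are descriptions over 6 arrays that share group and letter, with no test.

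For each member the gene with the most similar profile over the 6 arrays was also sought among 10472 others. It was Tgfb3, a transforming growth factor ligand, for Jag1, at r = 0.998. For Notch1 it was Gar1 (0.994), for Notch2 Zc3hc1 (0.980) and for Notch3 Gdpd1 (0.994). For Lfng it was Gpsm1 (0.997), for Hes1 Tmem87b (0.994), for Hes5 Rpl23, a ribosomal protein (0.993), for Hey1 Cpq (0.996) and for Hey2 Zfp692 (0.996). With 6 arrays such values are common: between 35 and 244 genes had r above 0.9 with a given member.

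Of 59 other genes of the pathway, 48 had a probe set on the array and 40 passed the filter. None of the 40 was called by limma after adjustment and 1, Dlk1, had an unadjusted p under 0.05, or 2.5%, against 2.54% of all probe sets tested. With the letter as a replicate block this count was 2 of 40, Dlk1 and Cntn1, against 1090 of the 18625 probe sets tested. Differences were above 0 for 24 and below 0 for 16, with a median of 0.036. The groups did not overlap for 1 gene higher and 1 lower in hSOD1G93A, or 2.5% each, against 3.73% and 3.79% of all genes tested. Jag2, Dll3, Dlk2, Notch4, Mfng, Hes2, Hes3 and Neurl1b were on the array but under the filter.

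Dlk1, a Delta-like protein without the domain by which the classical ligands bind Notch, was the gene that was higher without overlap. Its signals were 172, 214 and 225 in hSOD1G93A and 144, 152 and 130.04 in NonTG. The lowest hSOD1G93A array, A, still lay above the highest NonTG array, B. The difference was 0.52 (SE 0.19, interval 0.085 to 0.95), with an unadjusted p of 0.0238 and an adjusted p of 0.9997 in limma. Within the letters it was 0.26, 0.50 and 0.79. Cntn1, a neural adhesion protein that can bind Notch, had signals of 626, 1161 and 689.9 in hSOD1G93A and of 681, 704 and 489 in NonTG. Its difference was 0.37 (SE 0.23), and 0.092 without hSOD1G93A B, the array that stood apart.

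The genes of receptor cleavage differed little between the groups. Ncstn, a gamma-secretase subunit, differed by 0.097 (SE 0.089), and its second probe set by -0.13 (SE 0.14). Aph1a, another subunit, had signals of 1765, 1785 and 1708 in hSOD1G93A and of 1798, 1875 and 1855 in NonTG. These groups did not overlap, with hSOD1G93A lower, but the difference was small, -0.072 (SE 0.078; adjusted p of 0.9997 in limma). Over the 6 tested cleavage genes differences ran from -0.090 to 0.097.

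In the nucleus, Rbpj had signals of 2161, 2020.1 and 2315 in hSOD1G93A and of 2371, 2249.9 and 2076 in NonTG, which overlapped. Its 3 probe sets differed by -0.044 (SE 0.090), -0.068 (SE 0.099) and -0.040 (SE 0.14). The coactivator Maml2 differed by -0.12 (SE 0.22). Of the co-repressors, which silence target genes when Notch is not active, Ctbp2 differed by 0.10 (SE 0.088) and Cir1 by 0.12 (SE 0.13), and the 11 tested ran from -0.14 to 0.12. The fringe gene Rfng differed by 0.14 (SE 0.13) and Poglut1, which adds glucose to Notch, by -0.0019 (SE 0.074).

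Among feedback genes and other targets, Nrarp, a Notch target that restrains the receptor complex, was read in opposite directions by its 2 tested probe sets, 0.29 (SE 0.29) and -0.41 (SE 0.34). Heyl, another Hey gene, was dim and differed by -0.081 (SE 0.27). Numb, which draws Notch into endosomes, differed by -0.12 (SE 0.097). Dtx1, a ubiquitin ligase of the receptor, had signals of 69.0, 126 and 108 in hSOD1G93A and of 115, 41.6 and 51.3 in NonTG. High and low arrays occurred in both groups and 2 of the 3 NonTG values were under the filter level. The NonTG mean log2 signal, 5.97, was itself under that level, so Dtx1 passed the filter through its hSOD1G93A values. The difference was 0.65 (SE 0.43), at -0.73 for letter A against 1.60 for B and 1.07 for C. It was 1.08 without NonTG A and 0.35 without NonTG B.

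**Figure D4:**
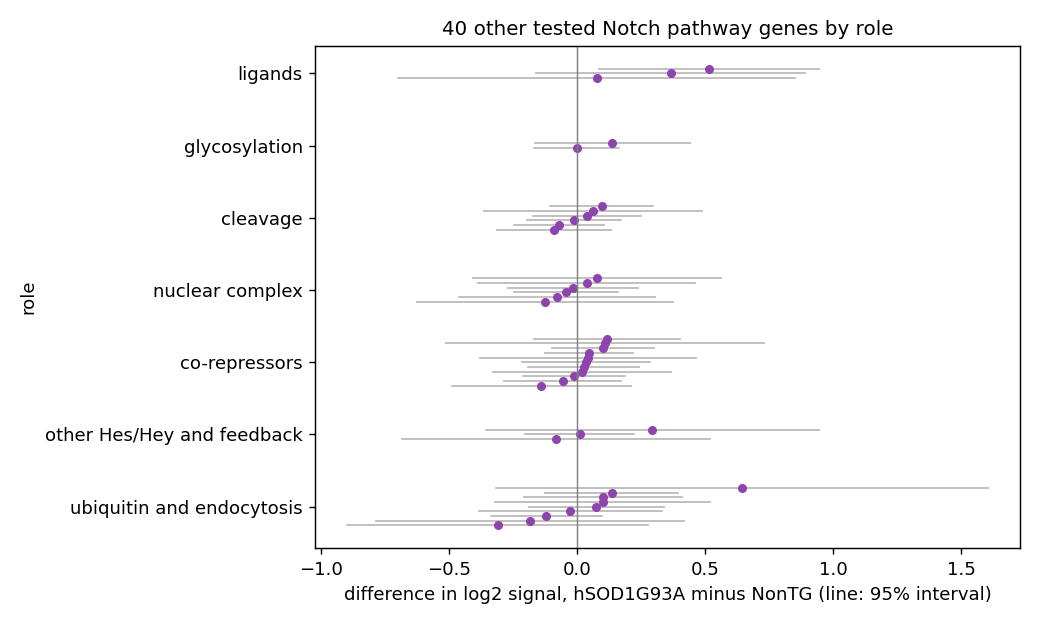
Difference in log2 signal, hSOD1G93A minus NonTG, for the 40 other tested genes of the pathway, each by its brightest probe set and placed by role, with grey lines for 95% intervals. The largest values are those of Dtx1 (0.65), a dim gene that passed the filter through its hSOD1G93A values, and Dlk1 (0.52). The cleavage genes lie between -0.090 and 0.097.

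Genes that Hes factors are known to repress were near the lower limit. Neurog1, Neurog2, Neurod1 and Neurog3, which start neuronal differentiation, were on the array and all under the filter, and 0 of the 4 passed in limma when no filter was used (Benjamini-Hochberg adjustment). Neurog3 had signals of 36.1, 43.7 and 36.0 in hSOD1G93A and of 32.6, 2.45 and 5.16 in NonTG, all under 66.7. The groups did not overlap for Neurog3, with hSOD1G93A higher, and overlapped for the other 3 genes. Over the probe sets that passed the filter, 4% were separated in that direction. That share does not cover Neurog3, which did not pass, and no share over dim probe sets is given. Among dim probe sets of the other pathway genes, that of Dll4 was also higher without overlap and that of Spen lower. The separation of Neurog3 is thus a description only. Of glial genes known to respond to Notch, Fabp7 differed by -0.096 (SE 0.066), Gfap by -0.12 (SE 0.070), Nfia by -0.10 (SE 0.077) and Nes by 0.037 (SE 0.16). None of these 4 passed in limma after adjustment or at an unadjusted p under 0.05.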

How the data were processed

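Expression was measured on 6 arrays, 3 hSOD1G93A and 3 NonTG, grouped by their titles. The deposited values are linear intensity values, which the submitters' processing notes credit to MAS5 (GCOS 1.4). The design text of the series names GC-RMA and log values, but the values are linear, and their mean after trimming 2% at each end was 500.16 to 500.17 on all arrays. The 57 control probe sets were left out.

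Values were log2-transformed without a pseudocount or further normalization, and probe sets with a mean at or below the 40th percentile were left out. Groups were compared with limma 3.58.1 (R 4.3.3), by a linear model and moderated statistics that allow for a trend with intensity. The tests were two-sided, p-values were adjusted over 18625 probe sets by Benjamini-Hochberg, and the threshold was 0.05. The procedure was tested on simulated data, with shifts larger than any difference of a tested member and with no pairing by letter. That test does not speak to differences of the size seen here. Precision is limited by the number of arrays, with a median standard error of 0.16, and 0.1 is the smallest p that an exact permutation of 3 against 3 can give.

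Every member is named. Of the other pathway genes, Rbpj and the 2 with the smallest p in each role are named. Neurog3 and the dim probe sets of Dll4 and Spen were singled out after their values were seen. Each gene in a list was read by its brightest tested probe set. Symbols came from the platform annotation. The members and lists were chosen with earlier results of these data known, and the Hey2 window was chosen after Hey1 was found to have none. Protein sequences were not used here.

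Both groups carry the letters A to C. Deviations from group means correlated at 0.30 (A), 0.25 (B) and 0.20 (C) for arrays of the same letter. For other pairs r was -0.28 to 0.025, but deviations within a group sum to 0, so these values are not independent. The letters were taken to pair the arrays and formed a replicate block in an alternative. The SEs and intervals printed are from fits without this block. With it the SE went from 0.29 to 0.22 for Jag1 and from 0.23 to 0.24 for Notch2. Other alternatives were no filter, a filter at the 60th percentile, a pseudocount of 16, quantile normalization, no intensity trend, array weights, a random block, the mean over a gene's probe sets and each array left out in turn.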

Additional observations from a re-analysis of the deposited data

How the results depend on the processing

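No alternative gave a call. The number of probe sets called over the whole array was 0 under every alternative run on probe sets, and so were the numbers among the Notch members and the other pathway genes. With the replicate block 0 of the 10 tested member probe sets passed, with a smallest adjusted p of 0.840 among them, and 0 of all probe sets, with 1090 at an unadjusted p under 0.05 against 474 without the block. The block changed no call, and moved the other pathway genes at an unadjusted p under 0.05 from 1 to 2, the second being Cntn1. Over the alternatives on probe sets this unadjusted count ran from 283 with the stricter filter to 1183 without hSOD1G93A A, and it was 999 with no filter, 852 with array weights, 1005 with the random block and 822 without NonTG A. Among the members it was 1 of 10, Hes5, with no intensity trend and with the random block in limma, and 0 otherwise. Of all 18625 probe sets, 583 were under 0.05 with no intensity trend and 1005 with the random block. The median difference over the members was -0.055, 0.0088 with the stricter filter, which left 6 member probe sets, and -0.061 to 0.054 with each array left out, highest without hSOD1G93A B and lowest without NonTG A.

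Of the 24 named differences 13 kept their sign under all alternatives that gave them a value, and no adjusted p was under 0.762. The stricter filter gave none for the dimmer ones, among them Hes5, Notch2, Notch3 and Lfng. With each array left out, Hes5 ranged from -0.64 to -0.40, Notch2 from -0.41 to -0.14, Lfng from 0.054 to 0.39, Hey2 from 0.032 to 0.16 and Dtx1 from 0.35 to 1.08, with no change of sign. Of the 11 others, 2 turned with the mean over the probe sets of a gene, Ncstn to -0.017 and Nrarp to -0.060, since their probe sets differ in sign. The other 9 turned with an array left out. Hes1 ranged from -0.20 to 0.061, Hey1 from -0.048 to 0.050, Jag1 from -0.48 to 0.14, Notch3 from -0.45 to 0.0014 and Notch1 (1371491_at) from -0.031 to 0.19. Among the other pathway genes Heyl ranged from -0.20 to 0.042, Maml2 from -0.25 to 0.093, Poglut1 from -0.033 to 0.034 and Rbpj from -0.095 to 0.0052. Hey1 was also -0.0041 with array weights and Poglut1 0.0072 after quantile normalization. Signals near or under 66.7 (Dll1, both probe sets of Hes5, Notch3, Dtx1) give differences whose size is uncertain. The cause of these changes was not tested.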
